A study of Mus musculus with 572 samples.

Results

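The cells described here are 76 medullary thymic epithelial cells (mTECs) of EED-cKO mice that carried little Aire RNA, set against the EED-cKO cells of the same sorts that expressed it. Members were chosen by their own Aire reading: an EED-cKO cell whose Aire level was under 200 CPM (reads of the gene in each 1000000 counted reads) was taken as Aire-low, and a cell at 200 CPM or above as Aire-expressing. They are 25.1% of the EED-cKO cells, which with Aire/EED-dKO cells make up the 572 single cells of the whole series. Each cell was sorted by flow cytometry as mTEChi (EpCAM+ epithelium with high MHC class II) from neonatal C57BL/6 thymus and sequenced by RamDA-seq, which reads full-length total RNA of a single cell without molecular identifiers.

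In EED-cKO mice a floxed Eed allele is deleted by Foxn1-Cre, which acts in thymic epithelial cells, so all cells compared, Aire-low and Aire-expressing alike, come from mice with this deletion and an intact Aire gene. Whether every cell had deleted the allele was not measured. Aire/EED-dKO cells carry the same deletion and come from mice crossed to the Aire knockout. The EED-cKO cells were prepared in experimental batches 3 and 4 (87 and 76 cells, mice of day 4) and batches 8 and 9 (63 and 77 cells, day 3), and the Aire/EED-dKO cells in batches 1, 2, 6 and 7 (88, 76, 38 and 67 cells, day 4), so genotype and batch cannot be told apart. The sex is given as unknown, and no label names the animal or litter a cell came from. Cells of a batch therefore count as 1 sample for each group, no p-value was computed, and the spread given beside a mean is the SD over the 4 batches.

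Aire is a nuclear protein of mature mTECs that releases the expression of a very large number of genes otherwise restricted to other tissues, each in a small share of cells, and this display of self-antigens serves to remove or divert self-reactive T cells. mTECs begin as MHC class II-low cells with basal keratins, pass through a proliferating stage, acquire MHC class II, co-stimulatory molecules and Aire, and later lose Aire while some of them take on programmes that mimic skin, gut, muscle, airway and other tissues. A sorted cell with little Aire can thus be at a stage before Aire, past it, or between bouts of expression, and RNA level alone does not tell which. EED is a core subunit of Polycomb repressive complex 2 (PRC2), which places the repressive mark H3K27me3 on developmental regulators.

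The exact binomial 95% interval of the share of Aire-low cells was 20.3 to 30.4%. By batch it was 18 of 87 cells in batch 3, 19 of 76 in batch 4, 18 of 63 in batch 8 and 21 of 77 in batch 9, that is 20.7%, 25%, 28.6% and 27.3%, which left 69, 57, 45 and 56 Aire-expressing cells. Aire had a median of 78.4 CPM in Aire-low cells, with a lowest value of 3.38 and a highest of 199.1, and of 1052 CPM in Aire-expressing cells, from 230.6 to 3706. The 5 cells just under the division were at 189.7, 191.6, 192.96, 194.7 and 199.1 CPM, and the 5 just above it at 230.6, 251.4, 257.2, 259.3 and 262.9 CPM. Every one of the 76 cells had at least 1 Aire read, and 54 lay above the 90th percentile of Aire/EED-dKO cells (51.6 CPM, with a median of 7.11). Most Aire-low cells thus read above nearly all cells that lack Aire. Among Aire/EED-dKO cells, 2 reached the level of the expressing group, at 1665 and 324 CPM.

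**Figure D1:**
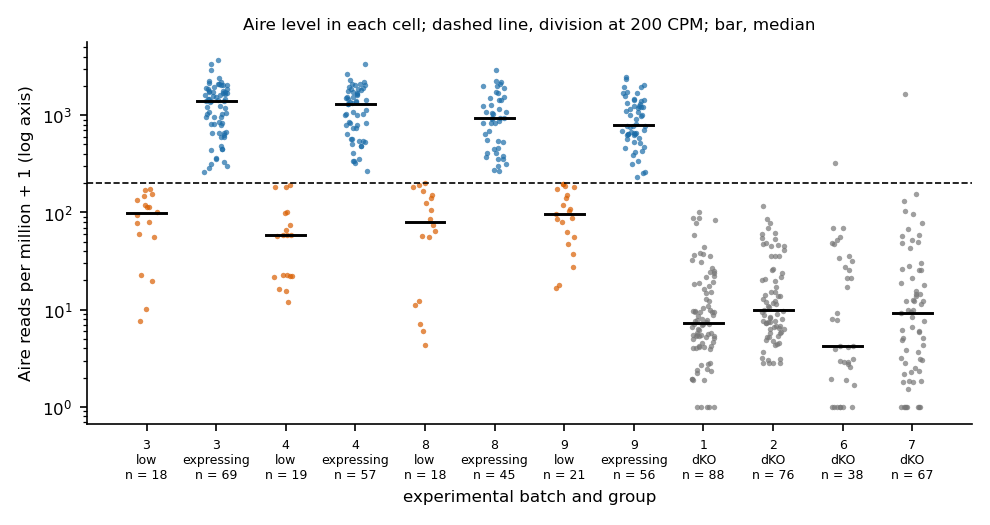
Aire CPM plus 1 in each cell (log axis), by experimental batch, for Aire-low (orange) and Aire-expressing (blue) EED-cKO cells and for Aire/EED-dKO cells (grey), with the division at 200 CPM as a dashed line and bars at the medians. Medians of Aire-low cells lay between 57.3 and 96.9 CPM and those of Aire-expressing cells between 792 and 1391 CPM. All but 2 Aire/EED-dKO cells were under 200 CPM.

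Library size did not separate the groups. Counted reads per EED-cKO cell ranged from 216139 to 2419312, with a median of 1188309 in Aire-low and 1274725 in Aire-expressing cells, and at an equal depth of 200000 reads a median of 12261 and 12099 genes had a read. Mitochondrial genes took a median of 0.520% and 0.499% of reads. Of 10 T lineage markers 7 passed the filter used below and 2 were called lower in Aire-low cells (28.6%, against 6.83% of all genes). These were Thy1, at 25.7 and 141.8 CPM in pooled Aire-low and Aire-expressing reads, and Rag1, at 2.52 and 9.32 CPM. By batch their sum was 28.2 to 125.1 CPM in Aire-low and 82.1 to 274.7 CPM in Aire-expressing cells, with Cd3e at 3.82 and 3.34 CPM. Of 10 markers of other thymic cells 9 passed, 3 were lower (33.3%), and the sums were 66.5 to 511 CPM and 252.2 to 385 CPM. The study's sort took only CD45-negative, EpCAM-positive cells, and the part of these markers in the results was not tested.

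Within each batch, the reads of a gene from all Aire-low cells were added up and expressed as CPM, likewise for the Aire-expressing cells, and the levels were compared as the log2 ratio of Aire-low to Aire-expressing cells after adding 1 CPM to each. A gene was called where the mean of the 4 batch ratios was at least 1 away from 0 and all 4 had the same sign. Genes tested had 5 or more reads in 5% or more of the EED-cKO cells, and Aire was left out. Of these 21963 genes, 571 were called higher in Aire-low cells (2.6%) and 1501 lower (6.83%), while the median ratio of all genes was 0.01. Whether the unequal size of the groups moves the ratio of genes with rare high readings was not tested. Of 6692 genes detected in 5 to 20% of cells, 1.51% were called higher and 7.96% lower. Of 4544 genes detected in 20 to 50% of cells it was 5.24% and 10.01%, of 3287 genes detected in 50 to 80% it was 5.202% and 9.13%, and of 7440 genes detected in at least 80% it was 0.820% and 2.86%. Lower calls outnumbered higher calls in each of these ranges. For genes read in few cells, a few high readings can set a ratio, and per-cell medians or shares of cells with at least 5 reads are given beside the main results. On the mean of natural-log normalised cell values, a compressed scale on which each cell weighs the same, 0.0228% of the genes passed the same bound upward and 0.10% downward. Reads were counted without regard to strand, and 32.4% of the tested genes share exonic bases with another gene, so that their reads could not always be assigned; among genes named here these are Cd3e, Rag1, Sirt1, Krt5, Ctsl, Ciita, Dll4, Pou2f2, Sox8, Top2b, Ccna2, Plet1, Pcgf5, Fbxo32, Gsg1, Cyp2f2, Ttbk1, Slc44a5, Nrxn3, Eed, Ezh2 and Suz12.

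Proximal promoters of 4 called genes are printed to show the contrast in base composition that ran through the lists. Cd80 and Sirt1 were lower in Aire-low cells, Krt5 and Lifr higher. Each window runs from 250 bases before to 50 bases after the gene start in RefSeq (assembly GRCm38.p6), written 5′ to 3′ on the strand of the gene, with every CpG dinucleotide in capitals. For Cd80, Sirt1 and Lifr this start lies inside the longer gene extent of the annotation used for counting, so the window belongs to 1 of the annotated starts.
Cd80, chr16:38458683-38458982, plus strand: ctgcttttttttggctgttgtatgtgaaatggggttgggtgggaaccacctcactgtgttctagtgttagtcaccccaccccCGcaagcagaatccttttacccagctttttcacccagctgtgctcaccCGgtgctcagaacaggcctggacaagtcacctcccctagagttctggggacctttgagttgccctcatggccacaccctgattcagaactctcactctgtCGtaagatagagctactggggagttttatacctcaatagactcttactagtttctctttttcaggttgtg
Sirt1, chr10:63338986-63339285, minus strand: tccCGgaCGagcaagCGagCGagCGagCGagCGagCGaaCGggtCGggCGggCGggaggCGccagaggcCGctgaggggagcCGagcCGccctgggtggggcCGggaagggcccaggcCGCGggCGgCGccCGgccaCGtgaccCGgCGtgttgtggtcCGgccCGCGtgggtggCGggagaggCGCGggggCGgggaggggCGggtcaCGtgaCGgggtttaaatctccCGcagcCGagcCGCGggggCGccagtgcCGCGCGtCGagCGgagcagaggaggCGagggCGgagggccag
Krt5, chr15:101712856-101713155, minus strand: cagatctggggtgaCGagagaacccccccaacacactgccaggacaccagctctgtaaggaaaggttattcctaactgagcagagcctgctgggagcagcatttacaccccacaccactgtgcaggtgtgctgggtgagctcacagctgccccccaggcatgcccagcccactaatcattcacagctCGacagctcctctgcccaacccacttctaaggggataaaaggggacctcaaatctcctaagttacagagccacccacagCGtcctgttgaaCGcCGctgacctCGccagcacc
Lifr, chr15:7129322-7129621, plus strand: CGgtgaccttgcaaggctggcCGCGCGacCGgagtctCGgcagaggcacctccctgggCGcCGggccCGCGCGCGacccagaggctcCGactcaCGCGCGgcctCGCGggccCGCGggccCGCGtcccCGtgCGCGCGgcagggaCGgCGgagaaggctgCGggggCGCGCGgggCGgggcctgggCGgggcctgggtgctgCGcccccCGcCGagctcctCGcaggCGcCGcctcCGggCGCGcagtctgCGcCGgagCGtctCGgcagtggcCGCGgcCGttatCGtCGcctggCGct

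The Cd80 and Krt5 windows held 3 and 6 CpGs and the Sirt1 and Lifr windows 47 and 53, so both kinds occurred among genes lower and genes higher in Aire-low cells. Over all genes with a RefSeq window (13843 of 21963) the median was 18 CpGs. It was 14 over the 395 matched genes called higher, 10 over the 988 called lower, and 7 over the Aire-driven genes (74.9% of them matched), a list described further on. The letters TATAAA, searched on both strands, occurred in 8.46% of all windows, 9.87% of the higher genes, 10.5% of the lower genes and 17.8% of the Aire-driven genes. These are counts of letters in a fixed window and say nothing of which factor binds there.

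Aire-low cells carried less RNA for co-stimulation, while MHC class II RNA differed less. All cells were sorted for high MHC class II, so similar class II levels in both groups are in part a consequence of the sort. Cd80, the B7-1 ligand of CD28 that marks mature mTECs (chr16:38455561-38496335, GRCm38), was at 63.2, 46.8, 57.1 and 35.2 CPM in Aire-low cells of batches 3, 4, 8 and 9 and at 127.1, 158.9, 149.8 and 163.1 CPM in Aire-expressing cells of the same batches. All 4 Aire-low values lay under all 4 Aire-expressing values, with a mean log2 ratio of -1.57 (SD 0.51). Pooled over batches, the Aire-low level was 49.7 CPM (exact Poisson 95% interval 48.3 to 51.2, counting error only) against 148.7 CPM (147.3 to 150.2). Per cell, the median was 23.8 against 109.4 CPM, and 64 of 76 Aire-low cells lay under the median Aire-expressing cell. Cd86, the partner ligand B7-2, was read in fewer cells and was lower by more, at -2.41 (SD 0.71), with at least 5 reads in 18.4% of Aire-low and 38.8% of Aire-expressing cells.

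The list of 14 genes of mature MHC class II-high mTECs moved in a single direction. All 14 had a ratio below 0, 13 of them in every batch, with a median of -0.59 where the median of all genes was 0.01, although only Cd80 and Cd86 passed the call (2 of 14, against 6.83% of all genes). Cd40, the receptor through which T cells license mTECs, had a ratio of -0.89 (SD 0.32), Utf1 -0.86 (SD 0.22), and Fezf2, another regulator of tissue antigens in mTECs, -0.66 (SD 0.08). H2-Aa and H2-Ab1, the chains of I-A class II, were at -0.20 (SD 0.10) and -0.21 (SD 0.09), with 898 against 1052 CPM for H2-Aa in the median cell. Of 10 genes for class II presentation, none was called lower (6.83% of all genes) and Ctsl was called higher (10.0%, against 2.6%) at 1.10 (SD 0.45). The other 9 had a mean below 0, 8 of them in every batch, and the list summed to 4067 to 5274 CPM by batch in Aire-low and 4956 to 6005 CPM in Aire-expressing cells, lower in each batch. Ctsl encodes cathepsin L, the protease that processes invariant chain in cortical epithelium, and its ratio differed in sign from that of Ctss, the cathepsin S gene, at -0.52 (SD 0.15). Ciita, the master regulator of class II, had a ratio of -0.80 (SD 0.27), and its level differed between the ranges of Aire-low cells described further on.

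Of 16 genes of RANK and NF-kB signalling, the route that induces Aire, none was called in either direction (2.6% of all genes were called higher and 6.83% lower). Their median was -0.37, with 12 of 16 below 0. Traf6, an adaptor downstream of RANK and CD40, had a ratio of -0.76 (SD 0.30), and Ltbr, the lymphotoxin beta receptor, stood on the other side at 0.77 (SD 0.19).

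Sirt1 was the single called gene of 20 that encode proteins known to act with Aire (5.0%, against 6.83% of all genes called lower). It encodes a deacetylase that removes acetyl groups from Aire protein and is abundant in Aire-expressing mTECs (chr10:63319005-63381704, GRCm38). It stood at 98.8, 36.9, 111.2 and 74.95 CPM in Aire-low cells and 282.8, 405, 318 and 368 CPM in Aire-expressing cells of batches 3, 4, 8 and 9. These batch values did not overlap between the groups, although single cells did. The mean ratio was -2.18 (SD 0.90), and 72 of 76 Aire-low cells were under the median of Aire-expressing cells. The other members leaned slightly upward, and the list median was 0.18 with 16 of 20 above 0. Top2b, a topoisomerase, had a ratio of 0.62 (SD 0.07), and Polr2a, the large subunit of RNA polymerase II, 0.48 (SD 0.07).

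**Figure D2:**
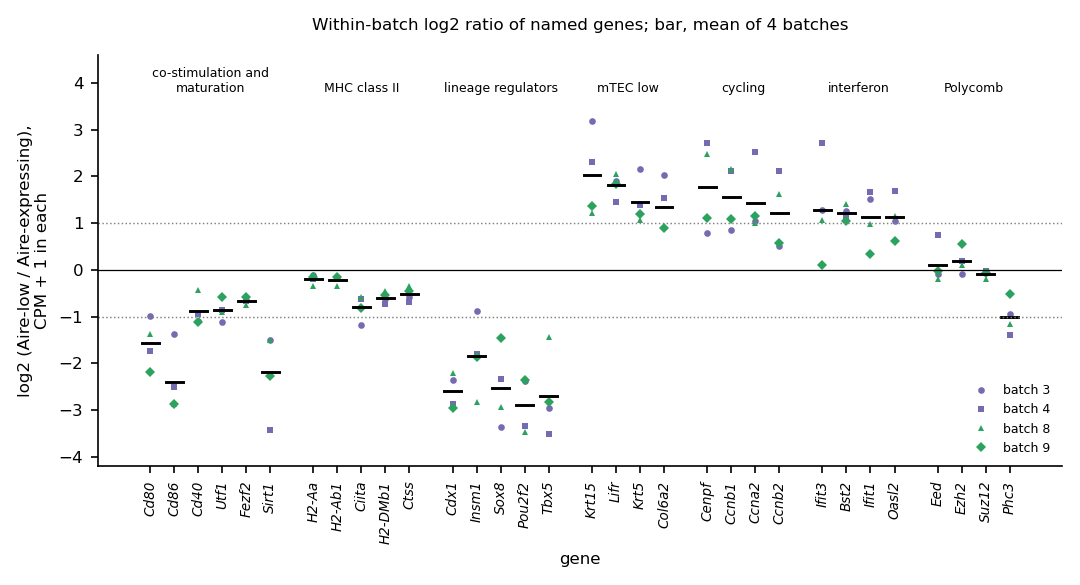
Log2 ratio of Aire-low to Aire-expressing EED-cKO cells (CPM plus 1 in each) for named genes, one symbol per batch and a bar at the mean of 4 batches, with dotted lines at 1 and -1. Cd80, Cd86, Sirt1, Cdx1, Insm1, Sox8, Pou2f2 and Tbx5 lay below 0 in every batch, mTEC low, cycling and interferon genes above 0, and H2-Aa, H2-Ab1, Eed, Ezh2 and Suz12 near 0.

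Markers of gut, liver and neuroendocrine cells had called decreases. Of 12 enterocyte and hepatocyte markers 11 passed the filter, 4 were lower (36.4%, against 6.83% of all genes) and none higher, while 5 had a mean above 0. The list median was -0.25, with 0.22, -1.68, 0.10 and -1.61 in batches 3, 4, 8 and 9, while the summed level was lower in Aire-low cells of each batch (293.03 to 614 CPM against 472 to 757 CPM). A range of Aire-low cells described further on did not share this lower sum. Cdx1, a homeobox regulator of intestinal identity, was at 38.9, 23.98, 35.3 and 23.7 CPM in Aire-low cells and at 204.7, 182.3, 166.4 and 191.5 CPM in Aire-expressing cells of batches 3, 4, 8 and 9, with no overlap and a mean ratio of -2.60 (SD 0.37). It had at least 5 reads in 59.2% of Aire-low and 96.5% of Aire-expressing cells, and 72 of 76 Aire-low cells were under the expressing median. Of 10 neuroendocrine markers 8 passed and 3 were lower (37.5%), with a median of -0.67 that was below 0 in each batch and a sum of 303.1 to 399.5 CPM in Aire-low against 671 to 839 CPM in Aire-expressing cells. Insm1, a zinc-finger regulator of neuroendocrine cells, had a ratio of -1.85 (SD 0.80), with a per-cell median of 5.08 against 82.4 CPM. Syt1, which encodes a calcium sensor of vesicle release, had -1.12 (SD 0.36).

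Regulators of other tissues went in different directions. Of 8 microfold markers 2 were lower (25.0%, against 6.83% of all genes), with a median of -0.30. Sox8, needed for intestinal microfold cells, had a ratio of -2.52 (SD 0.83), and Tbx5, a heart and forelimb regulator, -2.69 (SD 0.88) with at least 5 reads in 18.4% against 51.1% of cells. Pou2f2, a POU factor best known from B cells, had -2.88 (SD 0.61), though its median cell was at 0 CPM in both groups. Pou2f3, the tuft cell regulator, went both ways between batches, with 0.91 on average and an SD of 1.76. The myogenic regulators Myod1 and Myog also differed in sign between batches, at -0.34 (SD 1.52) and -0.30 (SD 1.52).

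Dll4, the Notch ligand that instructs T lineage fate in the cortex, was lower in Aire-low mTECs. Its levels were 10.3, 11.1, 7.70 and 5.88 CPM in Aire-low cells and 66.1, 82.1, 56.9 and 84.6 CPM in Aire-expressing cells of batches 3, 4, 8 and 9. The ratio was -2.93 (SD 0.48), and these batch values did not overlap between the groups. Of the 10 cortical epithelial markers 3 were lower, namely Dll4, Psmb11 and Tbata (30.0%, against 6.83% of all genes), and Ctsl was higher (10.0%, against 2.6%), with a median of -0.42, so the list did not move as one.

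Genes of the MHC class II-low, basal-keratin stage were higher in Aire-low cells. Of 12 mTEC low markers, 6 were called higher (50.0%, against 2.6% of all genes) and none lower, and the list median was 1.08. Lifr, the receptor subunit for leukaemia inhibitory factor (chr15:7090614-7197489, GRCm38), was at 632, 561, 784 and 688 CPM in Aire-low cells and 167.2, 205.9, 187.7 and 191.9 CPM in Aire-expressing cells of batches 3, 4, 8 and 9. These do not overlap, and the mean ratio was 1.81 (SD 0.26). The per-cell median was 355 against 61.9 CPM. Krt5, a basal keratin, had a ratio of 1.45 (SD 0.49) and a per-cell median of 641 against 86.8 CPM, and Krt15, a keratin of basal progenitors, a ratio of 2.02 (SD 0.92). Krt15 rested on cells with high readings, with a per-cell median of 0.61 against 0 CPM and a highest Aire-low cell of 1208 CPM. Col6a2, a collagen VI chain, had a ratio of 1.35 (SD 0.54) but rested on cells with high readings, since its median cell was at 2.25 CPM in the Aire-low and 9.75 CPM in the Aire-expressing group. Summed over the list, the level was 4024 to 5058 CPM by batch in Aire-low cells and 2417.7 to 2811 CPM in Aire-expressing cells.

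Cell cycle genes were higher in pooled reads of Aire-low cells in each batch. Of 12 cycling markers 5 were called higher (41.7%, against 2.6% of all genes) and none lower, with a median of 0.97. The median was -0.21 when cells high for the mTEC low list, a range defined further on, were left out. They included Cenpf, a kinetochore protein, at 1.77 (SD 0.97), and the cyclins Ccnb1 at 1.56 (SD 0.68), Ccna2 at 1.43 (SD 0.74) and Ccnb2 at 1.21 (SD 0.79). The list summed to 466, 459, 1893 and 2512.8 CPM in Aire-low cells and to 294.96, 196.7, 942 and 1244 CPM in Aire-expressing cells of batches 3, 4, 8 and 9. In both groups the sum was higher in the day 3 batches than in the day 4 batches, so day and the batch cannot be told apart there. This difference rested on a minority of cells, since the median cell stood at 1.51 against 0.77 CPM for Cenpf and at 2.62 against 0.92 CPM for Ccna2.

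Interferon-stimulated genes were higher in Aire-low cells too. Of 15 genes, 5 were called higher (33.3%, against 2.6% of all genes), namely Ifit3, Bst2, Ifit1, Oasl2 and Isg15. None was called lower, and all 15 had a mean above 0, with a median of 0.79. Bst2, which encodes the virion-tethering protein tetherin (chr8:71534255-71537456, GRCm38), was at 121.6, 124.2, 75.3 and 78.99 CPM in Aire-low cells and 50.4, 55.9, 27.7 and 37.9 CPM in Aire-expressing cells of batches 3, 4, 8 and 9. No Aire-low value fell among the Aire-expressing values, with a ratio of 1.21 (SD 0.16). Oasl2, an oligoadenylate synthetase-like gene, had 1.12 (SD 0.44), and Ifit1, an RNA-binding interferon effector, 1.13 (SD 0.60). In batch 9 the list median was 0.11, against 0.65 to 1.36 in the other 3 batches.

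How many Aire-low cells carried these programmes was counted cell by cell. A cell was called high for a list when its summed CPM was above the 95th percentile of the Aire-expressing cells of its batch, which by construction takes in 13 Aire-expressing cells (5.73%). For the mTEC low list, 32 of 76 Aire-low cells were high (42.1%, exact binomial 95% interval 30.9 to 53.98%), 8, 9, 8 and 7 of them in batches 3, 4, 8 and 9. For the cycling list 15 cells were high (19.7%, 11.5 to 30.5%), of which 9 were also high for mTEC low. The remaining 38 cells, in every batch between 8 and 11, were high for neither. Such a class is a range of a score, not a cell type: with the 90th percentile 38 cells, and with the 99th percentile 15 cells, passed for mTEC low. Of the mature mTEC high list, 1 Aire-low cell was high. For the tuft list 10 cells were high, 7 of them in batch 8, and for the microfold list 9.

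**Figure D3:**
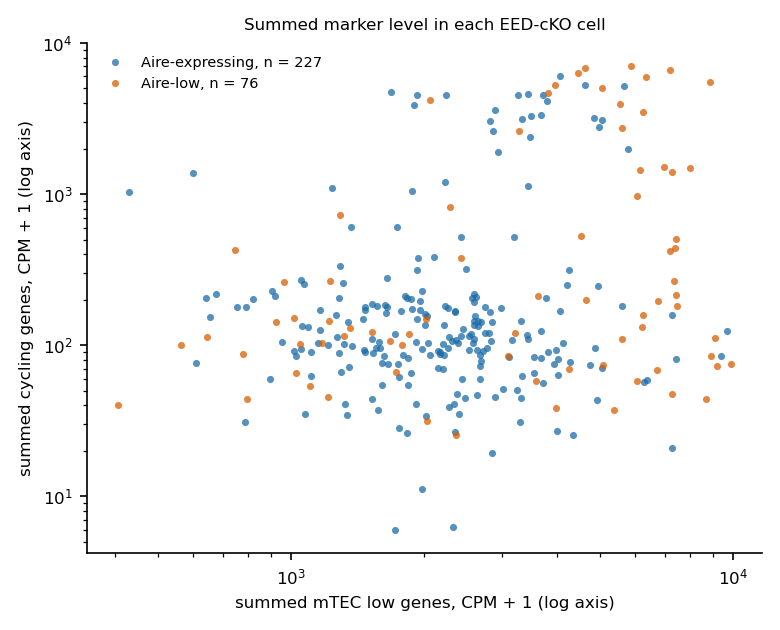
Summed CPM plus 1 of the 12 mTEC low genes (horizontal, log axis) and of the 12 cycling genes (vertical, log axis) in each of 76 Aire-low (orange) and all Aire-expressing (blue) EED-cKO cells. 32 Aire-low cells lay above the 95th percentile of their batch for mTEC low, 15 for cycling and 9 for both, while 38 lay at or below these percentiles on both axes.

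Aire-low cells of these ranges differed from each other in more than the markers that set them. Fezf2 had a median of 231.5 CPM in cells high for mTEC low and 269.6 CPM in cells high for cycling, but 56.1 CPM in the 38 cells high for neither, where Aire-expressing cells had 300.7 CPM. Ciita had a median of 275.3, 281.5 and 73.6 CPM in the mTEC low, cycling and neither ranges, against 367.9 CPM in Aire-expressing cells. Interferon genes summed to a median of 2135.4 CPM in cells high for mTEC low, 2414.8 CPM in cells high for cycling, 1284 CPM in neither and 889 CPM in Aire-expressing cells. The 14 classic Aire-dependent antigens summed to a median of 19.99 and 20.3 CPM in the mTEC low and cycling ranges and to 675 CPM in the cells high for neither, against 453 CPM in Aire-expressing cells. In that respect the cells high for neither were on the side of the Aire-expressing cells. The median Aire level was 55.4 CPM in the mTEC low range, 98.2 CPM in the cycling range and 88.8 CPM in the cells high for neither. Cd80, Sirt1 and Cdx1 were also higher in the cells high for neither than in the other ranges, but under the Aire-expressing cells. Cd80 had a median of 24.5, 22.3 and 47.1 CPM in the mTEC low, cycling and neither ranges against 109.4 CPM, and Sirt1 40.7, 40.5 and 69.98 CPM against 201.1 CPM. Cdx1 was at 2.14, 4.06 and 24.7 CPM against 161.4 CPM.

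When the 38 cells high for either list were left out (an alternative chosen after seeing the data, with Aire-expressing cells that were high left out too), several named genes had the same direction as before. Cd80 was then at -1.13, Cd86 at -1.60, Sirt1 at -1.78, Cdx1 at -2.20, Insm1 at -1.74 and Dll4 at -3.16. Ciita, not called before, was called lower at -1.54. Bst2 at 1.25, Ctsl at 1.16 and Dapl1 at 2.04 were again on the higher side, as was Ifit1 at 1.32. Ifit3 at 0.21 and Oasl2 at 0.68 were no longer called, nor were Lifr at 0.43 and Krt15 at 0.53. The same was true of Krtdap at 1.15, Dmkn at 0.37, Syt1 at -0.92, Disp2 at -3.44, Phc3 at -0.76, Pax7 at -2.51, Muc5ac at -2.09 and the cycling genes Cenpf, Ccnb1, Ccna2 and Ccnb2, each described in its place. Krt5 went to 0.53, and Sectm1a, which encodes a secreted and transmembrane immune protein, went from 2.89 to -0.33. Under this setting 1.84% of the tested genes were called higher and 6.54% lower.

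The genes with the largest increases ranged from widely to rarely read. Among genes with 5 reads in at least 10% of EED-cKO cells the 12 at the top were Agt (3.07), Emp1 (2.91), Sectm1a (2.89), Rab27b (2.87), Dapl1 (2.86), Adamts19 (2.79), Chst5 (2.58), Boc (2.55), Fbxo32 (2.54), Gsg1 (2.51), Cyp2f2 (2.50) and Pir (2.43). Of these, Sectm1a, Adamts19, Chst5, Boc, Cyp2f2 and Pir were no longer called without cells high for either list, with Adamts19 at 1.43, Chst5 at 0.22 and Boc at 0.27. Agt rested on few cells, with a median of 0 CPM in both groups and a highest Aire-low cell of 2058.3 CPM. Agt is angiotensinogen, Rab27b a GTPase of secretory vesicles, Boc a Hedgehog co-receptor and Cyp2f2 a cytochrome P450 of airway club cells. Dapl1 was at 59.9, 48.6, 52.2 and 38.1 CPM in Aire-low cells and 5.59, 8.32, 3.31 and 7.54 CPM in Aire-expressing cells of batches 3, 4, 8 and 9, with at least 5 reads in 64.5% against 20.3% of cells. Fbxo32, the ubiquitin ligase subunit atrogin-1, was the most widely read of the 12, in 88.2% and 72.2% of cells, and had a per-cell median of 133.1 against 25.7 CPM. Its spread over batches was small, with an SD of 0.45.

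The 12 genes with the largest decreases were seen in few Aire-low cells. They were Sphkap (-4.26), Ackr2 (-3.98), Slc14a1 (-3.95), Prokr2 (-3.78), Sim1 (-3.74), Disp2 (-3.68), Fgf23 (-3.63), Alox12b (-3.61), Robo4 (-3.55), Clca1 (-3.55), Ttbk1 (-3.49) and Frmpd2 (-3.49). Several belong to distant tissues: Fgf23 is a bone hormone that lowers phosphate, Sim1 a hypothalamic regulator, Alox12b a lipoxygenase of the skin barrier, Robo4 an endothelial receptor and Clca1 a product of goblet cells. Ackr2, a scavenging receptor for inflammatory chemokines (chr9:121898355-121911074, GRCm38), had 5 reads in 1 of 76 Aire-low cells and in 97 Aire-expressing cells, and its batch ratios were -4.63, -4.88, -4.79 and -1.64. Slc14a1, a urea transporter, had as many in 9.21% and 48.9% of cells. Ttbk1 and Frmpd2 had the smallest spread of the 12, with an SD of 0.32 and 0.33. For Fgf23 the levels were 1.15, 1.51, 3.78 and 0.641 CPM in Aire-low and 61.7, 39.2, 18.2 and 19.6 CPM in Aire-expressing cells, with 4 and 56 cells at 5 reads or more.

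Among Aire/EED-dKO cells, which come from other batches, these lower genes were of both sorts. Cd80 was at 246.9 CPM, Sirt1 at 611 CPM, Insm1 at 216.7 CPM, Cdx1 at 164.2 CPM and Prokr2 at 305 CPM in the pooled reads, each above its Aire-low level of 49.7, 80.3, 35.8, 30.1 and 5.75 CPM. Fgf23 at 0.997 CPM, Sim1 at 2.36 CPM, Alox12b at 3.78 CPM and Robo4 at 1.17 CPM were low there. Over the 1501 genes called lower, the median was 4.10 CPM in Aire-low, 17.05 CPM in Aire-expressing and 12.1 CPM in Aire/EED-dKO cells, and 1319 of them were higher in Aire/EED-dKO than in Aire-low cells (87.9%, against 40.4% of all genes). Over the 571 genes called higher it was 44.6, 15.1 and 11.5 CPM. A low level in Aire-low cells selected these genes, so a higher value in a further group is in part a consequence of that choice.

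Aire-driven genes were taken from the study's table of genes lower in bulk mTEChi RNA of adult Aire-deficient mice, keeping those labelled as highest in the Aire-expressing cluster of a separate single-nucleus data set alone. The study itself defines Aire-driven genes from single-nucleus clusters of wild-type and Aire-deficient mice, so the list used here has another definition, and it holds only the part of the table that was given. There were 443 genes without Aire, chosen on other animals, and 323 passed the filter. Of these, 71 were called lower (21.98%, against 6.83% of all genes) and 6 higher (1.86%, against 2.6%). The median was -0.86, and by batch -0.97, -1.02, -0.57 and -0.97. Most were read in few cells. The share of cells with at least 5 reads was smaller in Aire-low cells for 67.3% of the 443 genes and larger for 32.3%, with a median of 7.89% against 9.25%, and of 3.35% in Aire/EED-dKO cells. The largest ratios were those of Slc44a5 (-3.65), Fgf23 (-3.63), Alox12b (-3.61), Aqp1 (-3.41) and Gata2 (-3.34).

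Summed per cell, Aire-driven genes had a median of 2645 CPM in Aire-low and 5871 CPM in Aire-expressing cells, with 2235.2 and 2279.3 CPM in batch 8, and pooled reads gave 5473 and 7244 CPM. Genes with a read were also counted in each cell at 200000 reads. The median number of Aire-driven genes with a read was 63.5 in Aire-low and 69 in Aire-expressing cells of batch 3, 62 and 74 in batch 4, 50.5 and 51 in batch 8, and 47 and 63 in batch 9. Over all cells it was 57.5 (quartiles 45.75 and 77.25) against 64 (47 and 87.5), and 44 in Aire/EED-dKO cells (37 and 54). The Aire-low cells lay between the other groups, with wide overlap: 46 of 76 were under the median of Aire-expressing cells of their batch (60.5%), and 4 of 76 were under the 10th percentile. The split by Aire level uses the reading that chose the cells and is given as a description. Cells under 50 CPM, between 50 and 100 CPM and between 100 and 200 CPM had medians of 59, 56 and 58 genes (22, 23 and 31 cells), and cells between 200 and 400 CPM 62 (26 cells). In pooled reads, Aire-driven genes summed to 4251, 5796, 6132 and 6248 CPM in these ranges. The median sum per cell was 2561, 3193, 2565 and 4802 CPM.

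**Figure D4:**
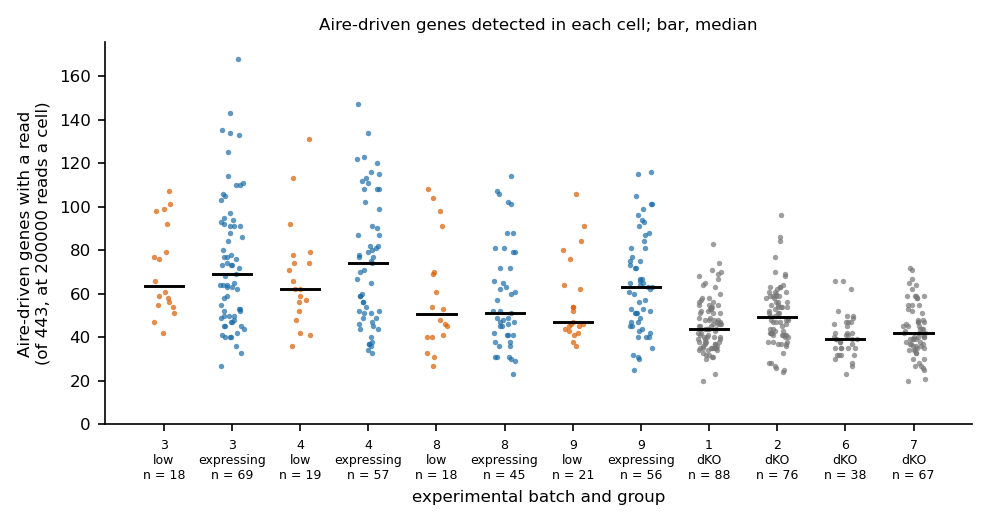
Number of the 443 Aire-driven genes with a read in each cell after thinning to 200000 reads, by batch and group, with bars at the medians. Medians were lower in Aire-low than in Aire-expressing cells of each EED-cKO batch, with 50.5 against 51 in batch 8 and 47 against 63 in batch 9, and those of Aire/EED-dKO batches lay between 39 and 49.5.

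The count divided the Aire-low cells by range. It was 47.5 in the median cell high for mTEC low and 45 in the median cell high for cycling, close to the 44 of Aire/EED-dKO cells, and 70.5 in the 38 cells high for neither, above the 64 of Aire-expressing cells. The 13 Aire-expressing cells that were high for mTEC low had a median of 47, so this range went with few Aire-driven genes on both sides of the division by Aire. Summed per cell, Aire-driven genes had a median of 2324.97 CPM in the Aire-low cells high for mTEC low, 6215 CPM in those high for neither and 5871 CPM in Aire-expressing cells. The direction of the difference between Aire-low and Aire-expressing cells depended on these ranges and on the list: averaged over batches it was -8.5 genes (SD 6.87), it was -2.75 without thinning and -1.75 with the division at 400 CPM, it was 3.63 genes when cells high for either list were left out of both groups, and it was 2.25 genes for the 695 genes whose label includes the Aire-expressing cluster among others. Whether a cell had expressed more Aire earlier was not tested, since a single reading does not record it.

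**Figure D5:**
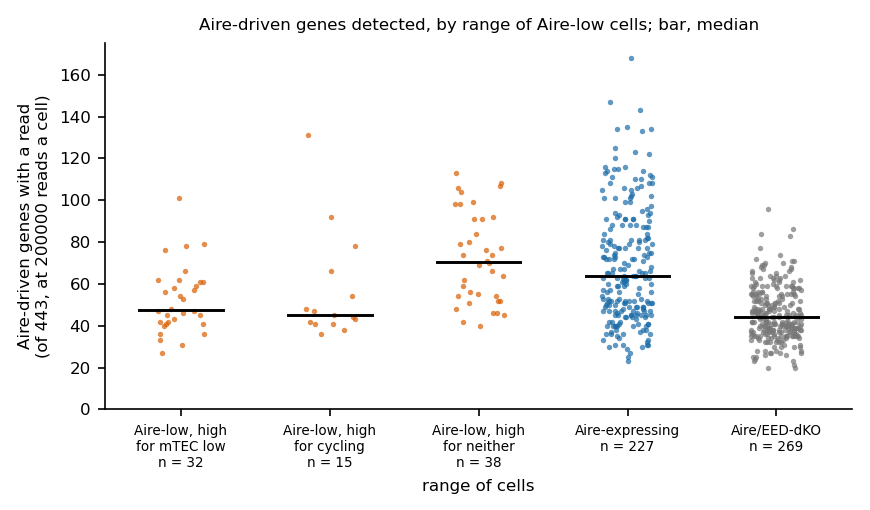
Number of the 443 Aire-driven genes with a read at 200000 reads per cell, for Aire-low cells high for the mTEC low list, high for the cycling list (9 cells are in both) or high for neither, and for Aire-expressing and Aire/EED-dKO cells, with bars at the medians. The median was 70.5 in the cells high for neither and 47.5 and 45 in the other Aire-low ranges.

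Antigens used in earlier work as examples of Aire dependence had a median ratio of -0.59, and 4 of those tested were below 0 in every batch. Of 14 genes 10 passed the filter and 3 were called lower (30.0%, against 6.83% of all genes): Sult1c2, a sulphotransferase, at -3.04 (SD 0.98), Crabp1, a retinoic acid-binding protein, at -2.09 (SD 1.60), and S100a8, a calgranulin subunit, at -1.81 (SD 1.01). Without cells high for either list Sult1c2 was at -2.74, and Crabp1 at -1.82 and S100a8 at -1.46 were no longer called. Sult1c2 had 5 reads in 19.7% of Aire-low and 66.5% of Aire-expressing cells. Gal, the neuropeptide galanin, was at -0.86 with an SD of 2.09 and had no set direction. A decrease was not particular to this list. Of 9 antigens known to depend on Fezf2, 8 passed and 3 were called lower (37.5%, against 6.83% of all genes). Their median was -1.18, with 6 below and 2 above 0, while their pooled sum was 222.5 CPM in Aire-low and 171.6 CPM in Aire-expressing cells. Of the Aire-driven genes listed at the head of the study's table, Myh3 was called lower at -1.59 (SD 0.52), whereas Nrxn3 at 1.01 (SD 2.04), Oas1h at -0.84 (SD 0.92) and Acoxl at -0.60 (SD 2.38) were not called.

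Calls among Polycomb genes were no more frequent than among all genes (2.6% higher and 6.83% lower). None of 11 PRC2 genes was called, and the median was 0.19. Summed over the list, PRC2 genes were at 924 to 1360 CPM by batch in Aire-low and 1149 to 1419 CPM in Aire-expressing cells, lower in each batch, and PRC1 genes likewise at 1280.2 to 1362 against 1460.0 to 1585 CPM. Eed, the gene with the floxed allele, had a ratio of 0.11 (SD 0.43), with 8.70, 15.04, 13.8 and 12.2 CPM in Aire-low and 9.35, 8.55, 15.9 and 12.5 CPM in Aire-expressing cells, which overlap. Reads from exons outside the deleted part still count for Eed, so this level does not measure the deletion. Ezh2, the methyltransferase, had 0.19 (SD 0.26), Suz12, its scaffold partner, -0.08 (SD 0.08), and the accessory subunits Jarid2 and Aebp2 -0.59 and -0.65. Among 18 PRC1 genes, Phc3, a polyhomeotic subunit, was called lower at -1.0 (SD 0.38), 5.56% of the list, and Pcgf5 was just short of the call at -0.97 (SD 0.21). Of 61 developmental regulators known as Polycomb targets, 44 passed the filter. Of these, 7 were lower (15.9%, against 6.83% of all genes) and 1 was higher (2.27%, against 2.6%). The median was -0.17, and 0.33 in batch 8. Summed, the list was higher in Aire-low cells in batches 3 (777.8 against 724.9 CPM) and 8 (577.9 against 482.9 CPM) and lower in batches 4 and 9. Pax7, Tbx5 and Foxa2 had the largest decreases of that list, at -2.72, -2.69 and -2.30.

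Lists for the tissue-mimicking cells differed from each other, and the study's set for its cluster 17 was on the higher side. Of 12 keratinocyte markers, Krtdap at 2.13 (SD 0.97) and Dmkn at 1.37 (SD 0.95) were called higher (16.7%, against 2.6% of all genes) and Grhl3, a grainyhead factor, lower at -1.32 (8.33%, against 6.83%), while the list median was -0.22. Krtdap had a median of 93.2 CPM in the cells high for mTEC low and 2.00 CPM in those high for neither. None of 8 tuft markers and none of 8 ciliated markers that passed the filter was called, where the shares of all genes (2.6% higher and 6.83% lower) give less than 1 call in such a list. The tuft list summed to 317.8, 237.1, 228.3 and 222.5 CPM in Aire-low and 222.1, 204.05, 106.6 and 165.5 CPM in Aire-expressing cells of batches 3, 4, 8 and 9, higher in each batch. Of 12 myoid markers 4 were lower (33.3%, against 6.83% of all genes), led by the cardiac actin Actc1 at -3.58 (SD 0.26), which had at least 5 reads in 2.63% and 7.49% of cells. Of 10 airway markers 7 had a mean below 0, the median was -0.34, and there was 1 call in each direction (10.0%, against 2.6% of all genes higher and 6.83% lower): the mucin Muc5ac was lower at -2.68 (SD 2.09) and the secreted airway protein Bpifa1 higher at 2.07 (SD 1.24). Muc5ac rested on few cells, with medians of 0.861 and 0.926 CPM and a highest Aire-expressing cell of 15206 CPM. A set of 94 genes that the study assigned to its cluster 17, whose tissue its text does not name, leaned upward. Again only those in the part of its table that was held were used. Of 93 tested genes 20 were called higher (21.5%, against 2.6% of all genes) and 6 lower (6.45%, against 6.83%). The median was 0.66, above 0 in each batch. The study's sets for other clusters had medians of 0.01 (ciliated), -0.29 (endocrine), -0.02 (microfold) and -0.74 (enterocyte). For its cluster 18, likewise without a tissue name in its text, the median was -0.10. The largest called increases of the cluster 17 set were those of Emp1, given above, and of Anxa8, an annexin of epithelia, at 2.40 (SD 0.96). Anxa8 had 5 reads in 69.7% of Aire-low and 27.8% of Aire-expressing cells. The 10 thymic epithelial progenitor genes had a single call, the surface marker Plet1 at 1.38 (SD 1.20), which is 10.0% of the list against 2.6% of all genes.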

How the data were processed

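Single mTEChi cells were sorted and profiled by RamDA-seq. Per the study's methods and the submitters' processing notes, the authors trimmed reads (fastp 0.20.0), aligned them to GRCm38/mm10 (STAR 2.7.3a), removed duplicates and poorly mapped reads (Picard 2.21.1, SAMtools 1.9) and deposited raw counts per Ensembl gene without strand (HTSeq 0.11.2), as 1 column per cell for cells past their read and gene minimums. Genes were named from the annotation given with GRCm38 (50011 of 50197 IDs matched). No doublet caller was run, since each library is 1 sorted cell.

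From these counts, the 303 EED-cKO cells were divided at 200 Aire CPM and reads were summed by group within each of 4 batches. Log2 ratios used a pseudocount of 1 CPM, for genes reaching 5 reads in 16 or more cells (5%). No animal is named and no p-value was computed: precision is the SD over batches, and exact Poisson and binomial 95% intervals cover counting error only, in which PCR copies are not independent molecules. Counted reads per cell were 216139 to 2419312. Scripts ran in Python 3.11.15 (numpy 2.4.6, pandas 2.3.3, scipy 1.17.1) and R 4.3.3, where edgeR 4.0.16 and DESeq2 1.42.0 gave scaling factors only, and were tested on simulated data.

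The members, gene lists and rules were chosen with earlier results of these data known. Named genes are those the study names, the 12 largest called ratios in each direction among genes reaching 5 reads in 10% of cells (unnamed gene models left out), up to 4 members of each list by size of ratio, and the first and the largest 5 Aire-driven genes. Isg15, Psmb11, Grhl3 and Cd3e were named after their values were seen. One gene of the rule is not reported here. Alternatives changed the Aire division, pseudocount, filter, scaling, averaging, depth and cells used. The study's gene table also holds its own fold changes and p-values, which were not used.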

Additional observations from a re-analysis of the deposited data

Results flagged for a closer look

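Over the 4 EED-cKO batches, the values named in the report were examined for a batch that stands apart from the other 3, and 6 were found. Chance alone gives about 1 in 20 of the values examined, which here comes to 6.4. The log2 ratio of Pou2f3 was -1.70 in batch 4 against 1.57 to 2.14 in the other 3 batches. That of Ackr2 was -1.64 in batch 9 against -4.88 to -4.63, and that of Prokr2 was -6.24 in batch 8 against -3.26 to -2.66. The ratio of Ccna2 was 2.53 in batch 4 against 1.01 to 1.15, and that of Anxa8 was 3.83 in batch 8 against 1.75 to 2.10. The median ratio of the Aire-driven genes was -0.57 in batch 8 against -1.02 to -0.97.

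The median of the tuft list was -0.23 at day 4 and 0.31 at day 3, a difference of -0.54 with every batch of a day on the same side of 0. This difference was not tested, and day and batch cannot be told apart.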

How the results depend on the processing

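Over 27 alternative settings and the 90th and 99th percentiles, 4445 values were recomputed: 4017 stayed within their bound, 411 moved past it and 17 changed sign. The bound was the SD over batches for ratios and differences, and a fixed fold change for shares of genes and counts of cells. A change of sign was counted only for called named genes and the main results, so other sign changes are not among the 17. With edgeR TMM and DESeq2 size factors, 2.55% and 2.62% of the tested genes were called higher and 6.98% and 6.79% lower. The share called higher was 4.11% with cells between 100 and 400 CPM left out, 1.52% with a pseudocount of 5 CPM, 1.26% with no filter, 4.36% with reads pooled over batches, 0.0228% on mean natural-log values, 5.42% in the day 4 and 4.01% in the day 3 batches alone, and 1.53% without cells high for mTEC low. The share called lower was 3.63% with 5 CPM added, 3.62% with no filter, 0.10% on natural-log values and 10.5% at day 4. The median of the mature list was -0.47 with a division at 400 CPM, -0.72 without the 100 to 400 CPM cells, -0.34 on natural-log values and -0.70 without cells high for either list. That of cycling genes was 0.18 on natural-log values and 0.61 without the highest cell of each gene. It was -0.11 without cells high for cycling, -0.21 without those high for mTEC low and -0.22 without both. That of mTEC low genes was 1.34 without the 100 to 400 CPM cells and 0.28 on natural-log values, and it was -0.18 and -0.28 without cells high for mTEC low and for either list. By construction, leaving out cells high for a list lowers that list.

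The median of Aire-driven genes was -1.39 with a division at 100 CPM, -1.41 without the 100 to 400 CPM cells, -1.26 and -0.50 with 0.1 and 5 CPM added, -0.56 with pooled reads, -0.024 on natural-log values, -0.64 for genes whose label includes the Aire-expressing cluster among others and -0.60 with the 50% filter. The difference in Aire-driven genes per cell was 1.38 without cells high for mTEC low, 3.63 without cells high for either list and 2.25 for the wider label. At the 99th percentile 8 cells were high for cycling and 15 for mTEC low. Among named genes, leaving out cells high for cycling gave Cenpf -0.33, Ccnb1 -0.019 and Ccnb2 -0.014, leaving out those high for mTEC low gave Ccnb2 -0.26 and Col6a2 -1.58, and leaving out both gave Cenpf -0.39, Ccnb2 -0.55, Col6a2 -2.64 and Sectm1a -0.33. The cause was not tested for the other changes.

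Leaving out each batch in turn gave 2.96% to 3.84% of genes higher and 7.81% to 8.52% lower, since fewer batches need to share a sign. The medians were -0.62 to -0.56 for the mature list, 0.83 to 1.07 for cycling, 1.00 to 1.12 for mTEC low and -0.95 to -0.88 for Aire-driven genes, and the per-cell difference was -11.2 to -6. Of 95 named genes called, 1 to 7 were no longer called; 91 were not on natural-log values, 30 without cells high for either list, 27 without those high for mTEC low, 19 and 15 with a division at 400 and 100 CPM, and 13 or fewer under each other setting. No paired analysis was possible by replicate number because those numbers only name cells, while every main ratio was taken within a batch. The settings on both lists at once and the 50% filter were chosen after seeing the data. Depth limits the genes read in few cells, where 1 cell can set a ratio.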

Other observations

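Genes called lower in Aire-low cells often lay next to each other. Of 1499 lower genes with a neighbour on the chromosome, 438 had an adjacent tested gene without overlapping bases that was also called lower (29.2%), whereas 11.1% of all tested genes had such a lower neighbour. For the higher genes it was 92 of 571 (16.1%), against 4.31% of all tested genes. This count was made after the calls were seen and was not tested.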
